A study of Mus musculus with 22 samples.

Results

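Among mouse squamous carcinomas of the cheek lining with intact Keap1, tumours rich in the suprabasal keratin Krt10 were compared with tumours poor in it, across all genes other than keratins. Of the 22 tumours sequenced, 12 were Keap1-wildtype, and 11 of these held at least 3000 CPM of the basal keratin Krt14, CPM being counts scaled to a common library total. The 8 with at least 10000 CPM of Krt10 are called keratinising here and the 3 under that value weakly keratinising. All 11 carried Krt5CreER-T2/+, Trp53fl/fl and, at the transgene, Rosa26LSL-PIK3CA(H1047R)/LSL-PIK3CA(H1047R), so that the keratinising and the weakly keratinising tumours alike had a floxed Trp53 and an activated PIK3CA transgene. Recombination was driven by a tamoxifen-inducible Cre under the Krt5 promoter of basal keratinocytes, after 4-hydroxytamoxifen was injected into the buccal mucosa alone (untreated) or with the tobacco carcinogen benzo[a]pyrene (BAP). The keratinising tumours were untreated 1, 3 and 5 and BAP 1, 3, 4, 5 and 6, and the weakly keratinising were untreated 2, untreated 4 and BAP 2. RNA came from whole pulverised tumours, and the labels state no age, sex or animal of origin for any tumour, so the spread between tumours is all that the tests measure. Total counts ranged from 29602879 to 38345425 over the 11 libraries. Another 10 tumours also carried Keap1fl/fl. Of these, 4 untreated tumours passed the Krt14 minimum, 1 keratinising and 3 weakly keratinising, and they are used for values only.

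In a stratified squamous epithelium, basal cells attached to the basement membrane express Krt5, Krt14 and the transcription factor p63. Cells that leave the basal layer switch to Krt1 and Krt10 in skin-like keratinising epithelium, or to Krt4 and Krt13 in soft mucosa. In the outermost living layers they make precursors of the cornified envelope such as loricrin, filaggrin and the small proline-rich proteins, crosslink them with transglutaminases, and secrete the lipids of the barrier. Squamous carcinomas keep this programme to varying degrees, which pathologists grade as keratinisation.

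The tumours were selected on Krt14 and the classes chosen by Krt10, so both are given as a description only. On raw library totals, the 3 weakly keratinising tumours held 1255 CPM of Krt10 (untreated 2), 9126 CPM (untreated 4) and 9041 CPM (BAP 2). The 8 keratinising tumours ran from 12364 CPM in untreated 5 and 14623 CPM in BAP 3, the nearest above the threshold, to 35770 CPM in BAP 4 and 44171 CPM in untreated 1. Untreated 4 and BAP 2 thus sat just under the threshold, and untreated 2 stood far below both. The tumour left out for low Krt14, untreated 6, held 809 CPM of Krt14 and 204 CPM of Krt10. Keratins took 5.24%, 8.55% and 7.12% of all counts in untreated 2, untreated 4 and BAP 2, against 7.18% in untreated 5 and up to 17.7% in untreated 1 among the keratinising tumours.

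**Figure D1:**
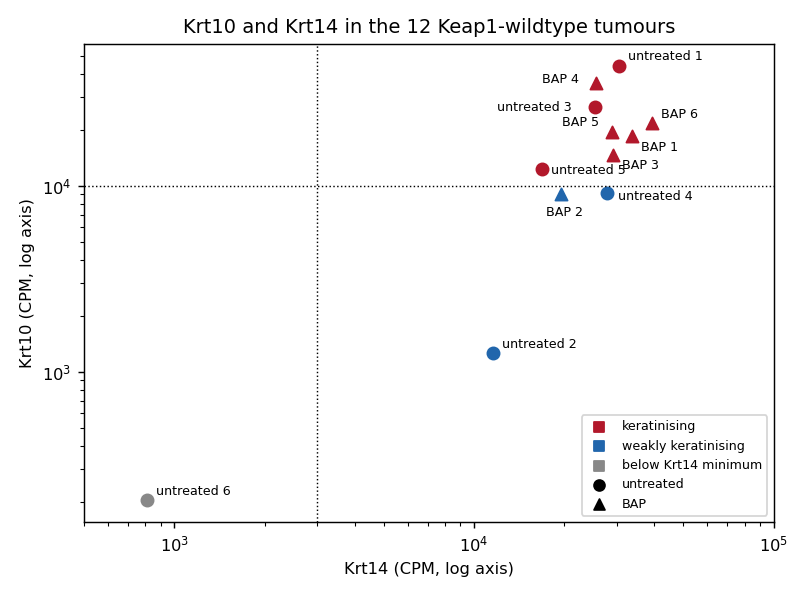
Krt14 (x axis) and Krt10 (y axis) in CPM, both on log axes, in the 12 Keap1-wildtype tumours, with dotted lines at 3000 CPM of Krt14 and 10000 CPM of Krt10. Colour marks the class and shape the treatment. Untreated 4 (9126 CPM of Krt10) and BAP 2 (9041 CPM) lie just under the horizontal line, and untreated 2 (1255 CPM) lies apart.

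Other keratins are likewise described without a test, on CPM after TMM scaling, which trims extreme genes before libraries are set level and is used for all CPM from here on. Krt1, the partner of Krt10, averaged 26172 ± 12102 CPM (SD, n = 8) in keratinising and 7768 ± 6037 CPM (SD, n = 3) in weakly keratinising tumours, and the ranges overlapped. The mucosal keratin Krt13 had 107, 5.09 and 30.8 CPM in untreated 2, untreated 4 and BAP 2, below all 8 keratinising tumours, which ran from 137 to 1753 CPM with a median of 491 CPM. The other mucosal keratin, Krt4, overlapped widely, at 23.4, 0.24 and 72.1 CPM against 4.71 to 704 CPM (median 92.7 CPM). The wound and hyperproliferation keratins Krt6a and Krt16 were at 10464 ± 3111 and 19480 ± 6588 CPM (SD, n = 8) against 4816 ± 1299 and 8813 ± 3052 CPM (SD, n = 3), again with overlap. Basal Krt14, on which the tumours were selected, averaged 30381 ± 8831 CPM (SD, n = 8) against 18275 ± 9353 CPM (SD, n = 3), with overlap. It was lowest in untreated 2, at 9049 CPM, and its Pearson's r with Krt10 in log2 level was 0.83 (n = 11 tumours). Basal Krt5 did not separate the classes, with 6197 ± 1836 CPM (SD, n = 8) against 5562 ± 1284 CPM (SD, n = 3). Krt5 was at least 4134 CPM and Trp63, the gene of p63, at least 225 CPM in all 11. These tumours had been selected on Krt14 of the same basal cells, so this is no separate check of their squamous identity.

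Across 18258 genes other than keratins, edgeR's quasi-likelihood test with treatment as a covariate called 0 genes (0%) at an adjusted p under 0.05. At an unadjusted p under 0.05 it gave 994 genes higher (5.44%) and 758 lower (4.15%) in keratinising tumours, 1752 in all (9.6%). DESeq2 called 147 higher and 50 lower, and limma-voom with sample weights 0. In 215 genes (1.18%) all 8 keratinising tumours lay above all 3 weakly keratinising ones, and in 198 (1.08%) all lay below. The floxed gene Trp53 was low in both classes, at 8.88 ± 2.40 CPM (SD, n = 8) and 11.2 ± 3.95 CPM (SD, n = 3), and mouse Pik3ca, from which reads of the transgene were not told apart, was at 96.5 ± 17.2 and 88.7 ± 27.4 CPM. Differences below are therefore given as values: log2 fold changes, keratinising minus weakly keratinising, with their standard error (SE). The median over all genes tested was -0.01.

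Genes of the cornified envelope were higher in keratinising tumours in sign without exception, but they follow the same suprabasal cells as Krt10 and are no independent evidence for it. Of 37 tested genes of epidermal cornification, 37 had a positive log2 fold change, with a median of 1.37, and 25 had an unadjusted p under 0.05, beside 5.44% of all genes. Of 33 genes of the mucosal and small proline-rich type, 33 were positive, with a median of 1.32 and 16 under that p. Tumour RNA was bulk, so fewer cornifying cells and less of these RNAs per cell cannot be told apart. Tgm3, a transglutaminase that crosslinks envelope proteins, had 178, 323 and 288 CPM in untreated 2, untreated 4 and BAP 2. The 8 keratinising tumours held 674 to 2954 CPM of Tgm3, with a median of 1820 CPM, all above those 3. Its log2 fold change of 2.65 ± 0.47 (SE) had an adjusted p of 0.249 in edgeR's test.

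In 1 gene of each list all 8 keratinising tumours lay above all 3 others, beside 1.18% over all genes, and the rest overlapped. Lor, which encodes loricrin, the main envelope protein of skin, had 140 and 534 CPM in untreated 2 and untreated 4 but 3457 CPM in BAP 2, inside the keratinising range of 1110 to 8267 CPM (median 4685 CPM). The keratinising tumour BAP 5 was the lowest of the 8 at 1110 CPM of Lor. Sprr1b, a small proline-rich precursor, showed the overlap from the other side: untreated 5, nominally keratinising, had 514 CPM, less than the 705 CPM of untreated 4, while the other 7 keratinising tumours had 1397 CPM or more. Log2 fold changes were 2.01 ± 0.87 (SE) for Lor and 1.91 ± 0.51 (SE) for Sprr1b. Flg, the filaggrin gene, and Ivl, the involucrin gene, overlapped as well: Flg was 20.5, 332 and 396 CPM in untreated 2, untreated 4 and BAP 2 and 150 to 1606 CPM in the keratinising tumours, and Ivl reached 138 CPM in untreated 4 against a keratinising median of 144 CPM. The late envelope genes Lce3c and Lce3e had log2 fold changes of 1.86 ± 0.46 and 2.12 ± 0.53 (SE). Many Lce and Sprr genes are near-identical copies whose reads the counting may split between them, so single members of these families are uncertain.

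Barrier lipids and proteases of shedding followed the same split. Of 34 lipid barrier genes, 30 were positive with a median of 0.80. Under an unadjusted p of 0.05 and higher were 14 of the 34, beside 5.44% of all genes. Alox12b, the lipoxygenase that starts processing of linoleate-bearing ceramides, had 96.7, 88.4 and 126 CPM in untreated 2, untreated 4 and BAP 2 and 114 to 661 CPM (median 454 CPM) in keratinising tumours. Only untreated 5, at 114 CPM of Alox12b, lay within the weakly keratinising range. Cyp4f39, which makes omega-hydroxy fatty acids for those ceramides, differed by 1.23 ± 0.28 (SE), and the ceramide synthase Cers3 by 1.14 ± 0.35 (SE). Among kallikreins, Spink inhibitors and serpins, which control shedding of the cornified layer, 27 of 29 were positive with a median of 1.09. Under that p and higher were 15 of the 29, beside the same 5.44%. Klk8, a serine protease of the upper layers, separated the classes: 202, 218 and 336 CPM against 384 to 936 CPM (median 544 CPM), a log2 fold change of 1.11 ± 0.27 (SE). Klk12 overlapped, since BAP 2 reached 59.1 CPM and the lowest keratinising tumour 48.6 CPM.

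**Figure D2:**
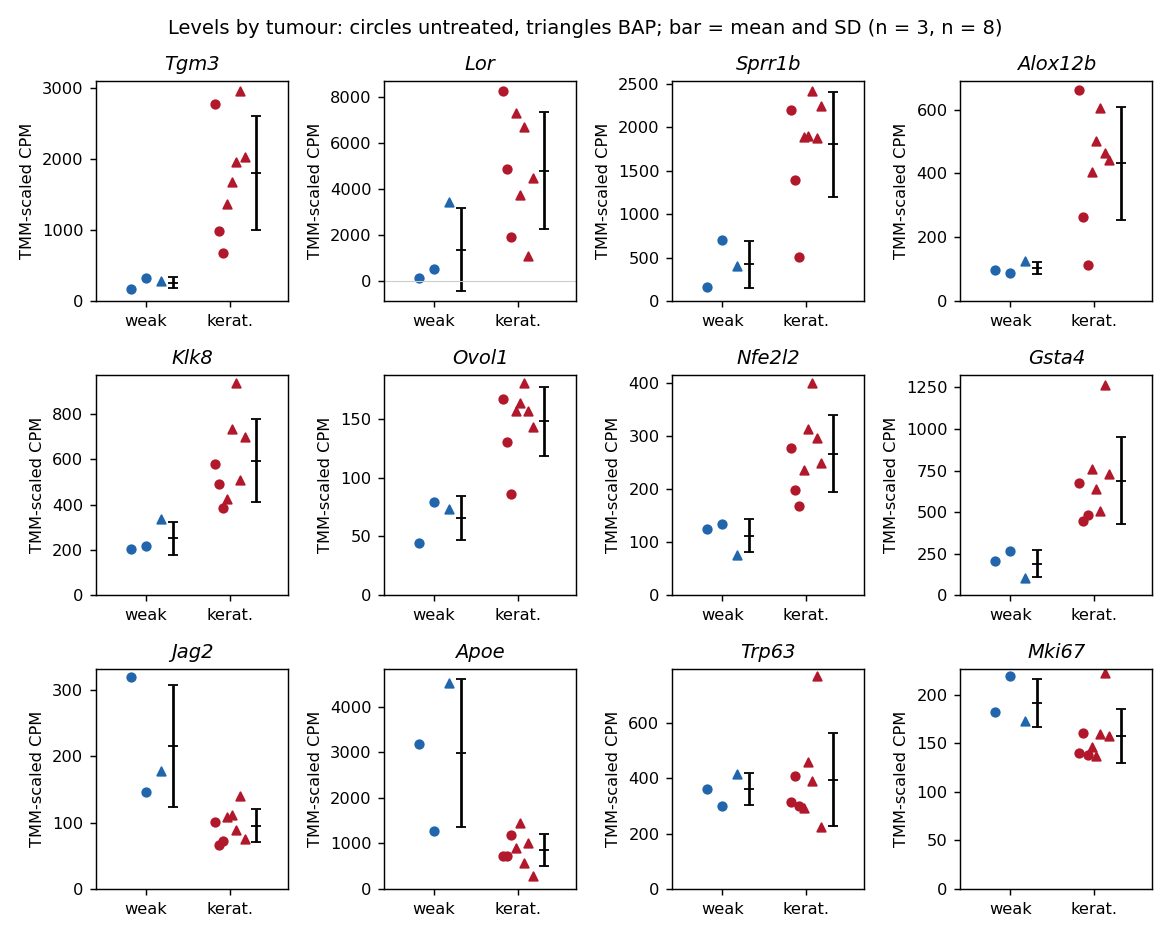
TMM-scaled CPM (y axis, linear from 0 or, where the error bar crosses it, below) of 12 genes in the 3 weakly keratinising (weak, blue) and 8 keratinising (kerat., red) tumours, circles untreated and triangles BAP, with mean and SD. Tgm3, Klk8, Ovol1, Nfe2l2, Gsta4 and Jag2 do not overlap between the classes, and Trp63 and Mki67 overlap widely.

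Desmosomes, the junctions that bind keratinocytes through their keratin filaments, were higher in part. Of 14 desmosome genes, 11 were positive with a median of 0.64. Under an unadjusted p of 0.05 and higher were 6 of the 14, beside 5.44% of all genes. Among the 6 was the plakophilin Pkp1 at 1.12 ± 0.40 (SE). Pkp1 was 884, 1714 and 905 CPM in untreated 2, untreated 4 and BAP 2 and 1081 to 3820 CPM in keratinising tumours, where untreated 5 was again the lowest. Among 18 genes of hemidesmosomes and basal adhesion, 14 were positive with a median of 0.20. Of these 18, 1 was under that p and higher and 1 under it and lower, beside 5.44% and 4.15% of all genes. The lower was the tetraspanin gene Cd151 at -0.47 ± 0.21 (SE). Trp63 differed by 0.04 ± 0.32 (SE), an amount whose sign turned under other settings.

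Of 30 proliferation genes, 21 were positive with a median of 0.20. Under that p and higher were 2 (6.67%), near the 5.44% of all genes: the helicase genes Mcm3 at 0.58 ± 0.22 (SE) and Mcm4 at 0.76 ± 0.32 (SE). Mki67, the Ki-67 antigen gene, went the other way at -0.31 ± 0.20 (SE), with 182, 219 and 173 CPM against 137 to 222 CPM (median 152 CPM), and overlapped.

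Among transcription factors of squamous differentiation, 22 of 33 were positive with a median of 0.37. At an unadjusted p under 0.05, 5 of the 33 were higher and 4 lower, beside 5.44% and 4.15% of all genes. The examples that follow, Ovol1 and Klf4, are among the higher ones only. Ovol1, a zinc finger factor that helps basal cells leave the cycle, had 44.5, 79.0 and 73.0 CPM in untreated 2, untreated 4 and BAP 2 and 85.9 to 181 CPM (median 157 CPM) in keratinising tumours. These ranges did not overlap, and the log2 fold change of Ovol1 was 1.08 ± 0.25 (SE). Klf4, needed for the skin barrier, differed by 1.15 ± 0.45 (SE), and its ranges overlapped.

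Notch signalling drives keratinocytes out of the basal layer. In 2 of 20 Notch genes, both of ligands, all 8 keratinising tumours lay below all 3 others, beside 1.08% over all genes. Jag2, a ligand gene of basal cells, had 319, 146 and 178 CPM in untreated 2, untreated 4 and BAP 2 and 65.9 to 140 CPM (median 94.7 CPM) in keratinising tumours, with no overlap. Its log2 fold change was -1.25 ± 0.29 (SE). The ligand gene Dll1 did not overlap either, at 21.4, 20.9 and 32.1 CPM against 9.77 to 18.7 CPM, a log2 fold change of -0.78 ± 0.24 (SE). Notch1 was at -0.08 ± 0.55 (SE), and its sign turned under other settings. Over the 20 Notch genes, 11 were positive with a median of 0.13. At an unadjusted p under 0.05, 2 of the 20 were higher and 3 lower, beside 5.44% and 4.15% of all genes.

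Growth factors and alarmins of the epithelium varied by member. Of 16 EGFR family genes, 1 was higher at an unadjusted p under 0.05 (6.25%), near the 5.44% of all genes. It was Ereg, the epiregulin gene, with 19.5, 26.0 and 25.7 CPM in untreated 2, untreated 4 and BAP 2 against 27.9 to 131 CPM, a log2 fold change of 1.45 ± 0.45 (SE). The cytokine genes Il18 and Il33, both held by keratinocytes for release on damage, were higher in all 8 keratinising tumours. Il18 was 11.3, 16.5 and 23.7 CPM against 24.2 to 52.2 CPM, and Il33 was 24.2, 52.6 and 67.4 CPM against 80.4 to 373 CPM. Their log2 fold changes were 1.20 ± 0.25 and 1.93 ± 0.52 (SE). The alarmin and interleukin-1 list as a whole had no such lean, with 12 of 26 positive and a median of -0.08.

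Sterol synthesis genes, which supply barrier cholesterol, were positive in 20 of 22 cases with a median of 0.35. At an unadjusted p under 0.05, 3 were higher (13.6%), beside 5.44% of all genes. Hsd17b7, an enzyme of late cholesterol synthesis, had 27.3, 77.4 and 62.9 CPM against 80.1 to 190 CPM (median 134 CPM), a log2 fold change of 1.25 ± 0.35 (SE). Pmvk, of the mevalonate pathway, had 40.7, 45.5 and 47.5 CPM against 60.4 to 99.6 CPM, a log2 fold change of 0.78 ± 0.20 (SE). Neither overlapped, though untreated 4 and untreated 5 were nearly level for Hsd17b7. Crabp2, which carries retinoic acid to its nuclear receptors, was at 0.81 ± 0.26 (SE) with no overlap.

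Nfe2l2 encodes NRF2, the master regulator of antioxidant genes, a protein that KEAP1 marks for degradation. All 11 tumours were Keap1-wildtype. Nfe2l2 RNA was lower in the weakly keratinising ones, without a call (adjusted p of 0.369 in edgeR's test). It had 125, 134 and 76.1 CPM in untreated 2, untreated 4 and BAP 2 against 167 to 398 CPM (median 262 CPM), with no overlap and a log2 fold change of 1.17 ± 0.31 (SE). Keap1 itself differed by -0.14 ± 0.15 (SE), with 49.4 ± 5.07 CPM (SD, n = 8) and 52.4 ± 5.13 CPM (SD, n = 3). Gsta4, a glutathione transferase for lipid peroxidation products, had 206, 263 and 101 CPM against 446 to 1268 CPM, and Srxn1, which repairs peroxiredoxins, had 46.0, 63.1 and 51.4 CPM against 67.6 to 276 CPM. Log2 fold changes were 1.78 ± 0.42 for Gsta4, 1.64 ± 0.44 for Srxn1 and 1.48 ± 0.50 (SE) for the heme oxygenase gene Hmox1. Nqo1, a quinone reductase often used to read NRF2 activity, was at 0.08 ± 0.37 (SE), with a sign that turned under other settings. Of 39 NRF2 target genes, 24 were positive with a median of 0.11. At an unadjusted p under 0.05, 6 were higher (15.4%), beside 5.44% of all genes, and none lower. For the aryl hydrocarbon receptor, which senses benzo[a]pyrene, the receptor gene Ahr was at -0.76 ± 0.26 (SE) and its partner Arnt at 0.89 ± 0.23 (SE). Neither overlapped, but the classes nearly met. Ahr was at most 25.5 CPM in keratinising and at least 25.7 CPM in weakly keratinising tumours, and Arnt at least 34.9 CPM against at most 33.4 CPM. BAP had been used in 5 of the 8 keratinising and in 1 of the 3 weakly keratinising tumours, and the difference of the class effect between treatments gave 0 calls in edgeR, with 1487 of 18258 genes (8.14%) at an unadjusted p under 0.05. That test has BAP 2 as its only weakly keratinising BAP tumour, which is assumed to vary like the other groups.

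**Figure D3:**
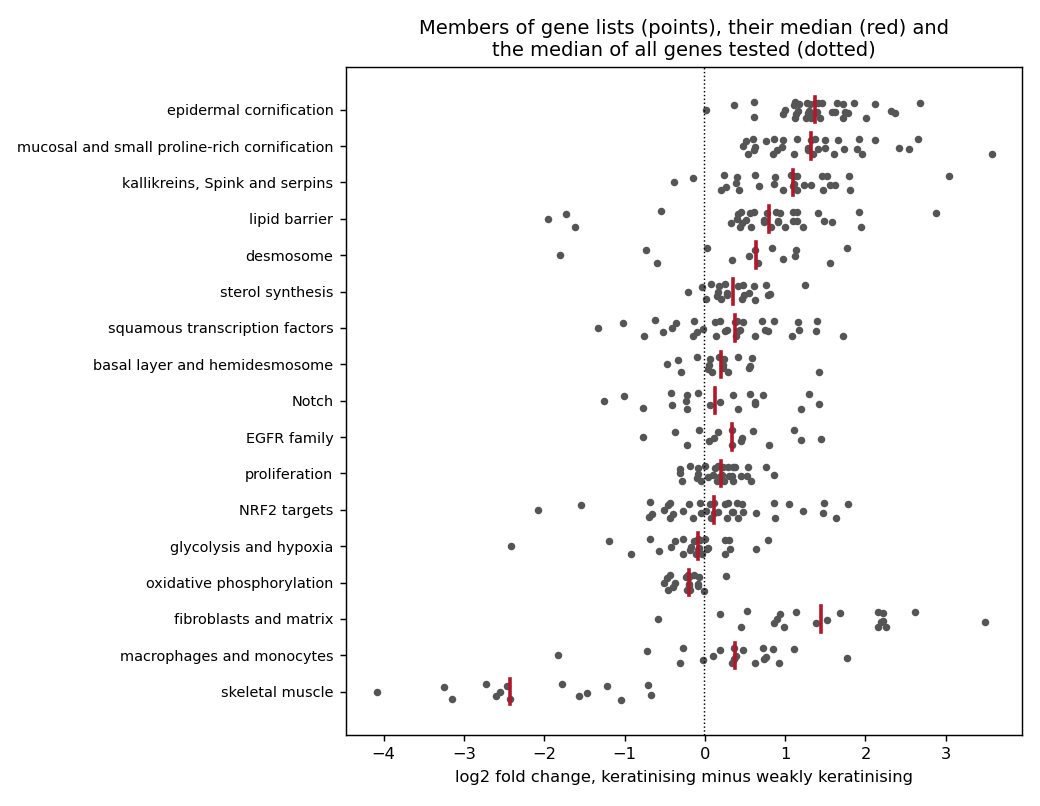
Log2 fold changes, keratinising minus weakly keratinising (x axis), of the tested members of 17 gene lists (points), the median of each list (red) and the median of all genes (dotted, -0.01). Epidermal cornification (median 1.37) lies wholly to the right, while the basal layer (0.20), Notch (0.13) and proliferation (0.20) lists straddle 0.

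The smallest adjusted p, 0.249 in edgeR's test, was shared by 7 genes. Besides Tgm3 these were F5, a clotting factor gene with at most 1.24 CPM in any tumour, the chaperone gene Dnajb4 at 1.41 ± 0.25 (SE), and 4 genes of chromosome 17. Dlk2, a Notch-related membrane protein gene (46297421 to 46303271 in GENCODE M21 on GRCm38), had a log2 fold change of -2.51 ± 0.41 (SE). Pex6 (46711463 to 46725541), an ATPase of peroxisome assembly, had 83.1, 103 and 94.4 CPM in untreated 2, untreated 4 and BAP 2 against 34.4 to 52.5 CPM. Tjap1 (46257851 to 46283026), of tight junctions, had 31.8, 32.6 and 41.0 CPM against 10.9 to 20.3 CPM. Pex6 and Tjap1 did not overlap, and their log2 fold changes were -1.11 ± 0.19 and -1.23 ± 0.22 (SE). The fourth, Qpct (79051906 to 79090378), which forms pyroglutamate at protein ends, was higher in keratinising tumours at 2.07 ± 0.34 (SE).

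Because the class threshold cut between near neighbours, the same test was also run with the log2 level of Krt10 in place of the classes. It called 273 genes higher with Krt10 (1.5%) and 120 lower (0.657%) of 18258. Those calls rested on the 2 ends of the Krt10 range: without untreated 2 there were 1 higher and 0 lower, and without untreated 1 there were 1 and 1. Leaving out BAP 4 gave 123 and 40, BAP 6 gave 152 and 62, BAP 1 gave 158 and 54, and BAP 3 gave 224 and 74. Leaving out any of the other 5 gave 191 to 375 higher and 86 to 148 lower. Of the called genes, 17 of 37 were in epidermal cornification, 9 of 33 in the mucosal type, 11 of 34 in barrier lipids, 5 of 29 in kallikreins, Spink and serpins, 3 of 14 in desmosomes, 4 of 33 in transcription factors, 4 of 22 in sterol synthesis and 0 of 18 in the basal layer. All of these were higher with Krt10.

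Several of the called genes are of the upper layers. Hrnr, the hornerin gene, a filaggrin relative, ran from 3.80 CPM in untreated 2 to 627 CPM in BAP 6, a slope of 1.35 ± 0.18 (SE) in log2 level per doubling of Krt10, with an adjusted p of 0.00814 in edgeR's test. Without untreated 2 the slope of Hrnr was 1.52. Flg had a slope of 1.14 ± 0.23 (SE) and 0.99 without untreated 2, Lor had 1.08 ± 0.20 (SE) and 1.02 without it, and Klk9, a kallikrein gene, had 1.06 ± 0.15 (SE) and 0.99 without it. Blmh, a protease that breaks down filaggrin, had a slope of 0.65 ± 0.08 (SE) and 0.61 without untreated 2, Cers3 had 0.51 ± 0.06 (SE) and 0.61 without it, and Klf4 had 0.51 ± 0.10 (SE) and 0.76 without it. The factor gene Hopx was called higher at 0.84 ± 0.13 (SE), and its slope was 0.72 without untreated 2. The mevalonate enzyme gene Mvd was called higher at 0.48 ± 0.07 (SE), which fell to 0.30 without untreated 2, with an adjusted p of 0.282 in edgeR's test. The slopes of these 9 genes thus kept their sign without the lowest tumour, while none of the 9 passed the test there. Lower with Krt10 were Jag2, at -0.40 ± 0.08 (SE), and Ptprs, a receptor phosphatase gene, at -0.66 ± 0.08 (SE), which ran from 616 CPM in untreated 2 to 45.5 CPM in BAP 6. Slc27a1, a fatty acid transporter gene, was called lower at -0.62 ± 0.09 (SE).

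Over the 11 tumours, the genes most like Krt10 in log2 level were Cited4, Blmh, Ly6g6c, Atp6v0c, Hsd17b7, Tmem79, Elovl1, Lipn, Degs1 and Atmin. Pearson's r ranged over these from 0.95 to 0.96 (n = 11 tumours), as a description; the libraries share untreated 2 as a far point. Tmem79 takes part in lamellar granule secretion, Elovl1 lengthens fatty acids for ceramides, Lipn is a lipase of the granular layer and Degs1 completes ceramide synthesis. Cited4, a transcriptional cofactor gene, ran from 3.09 CPM in untreated 2 to 142 CPM in untreated 1.

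**Figure D4:**
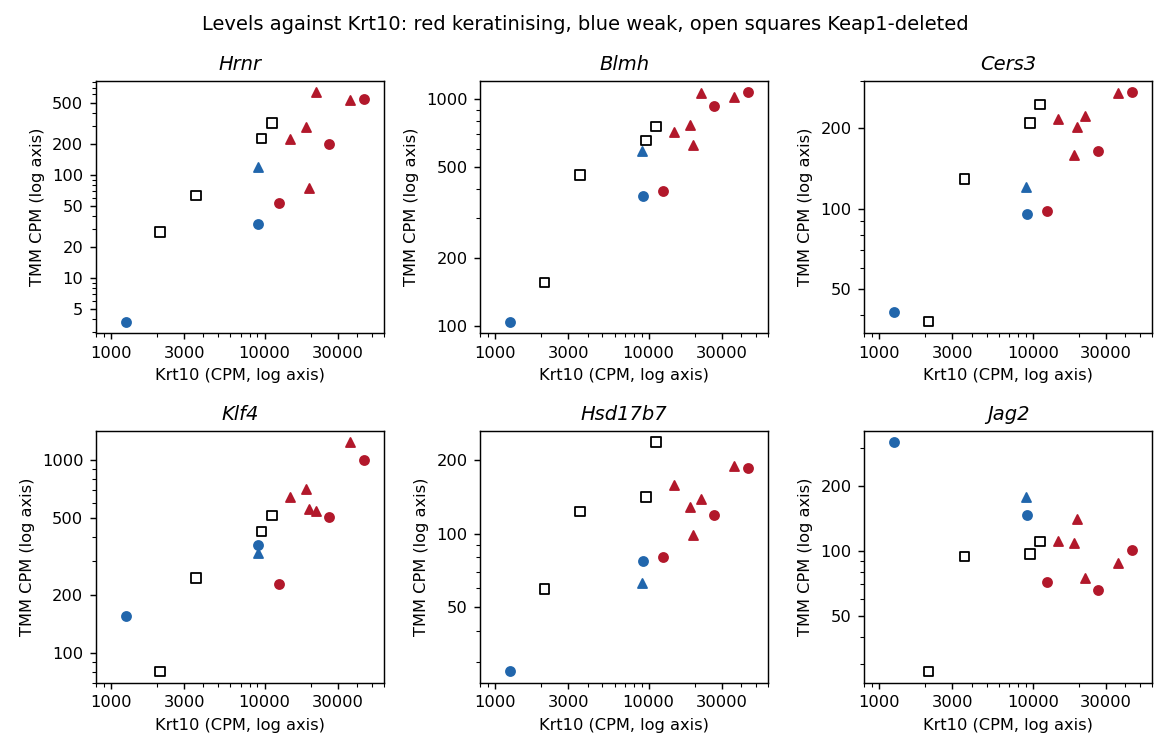
Levels of 6 genes (y axis, TMM CPM, log) against Krt10 (x axis, CPM, log) in keratinising (red) and weakly keratinising (blue) Keap1-wildtype tumours, circles untreated and triangles BAP, and in the 4 Keap1-deleted tumours above the Krt14 minimum (open squares). Hrnr, Blmh, Cers3, Klf4 and Hsd17b7 climb with Krt10 in both sets; Jag2 runs from 319 CPM in untreated 2 to 65.9 CPM in untreated 3 among the wildtype tumours and from 27.7 to 111 CPM in the Keap1-deleted ones.

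The 4 Keap1-deleted tumours were used neither for choosing the classes nor for the calls. Their Krt10 was 2097 CPM in untreated 4, 3587 CPM in untreated 2, 9585 CPM in untreated 1 and 11146 CPM in untreated 5. Hrnr followed that order at 28.1, 63.0, 225 and 319 CPM, and so did Blmh at 155, 462, 657 and 756 CPM. Klf4 followed it as well, at 80.2, 246, 427 and 517 CPM. Jag2 did not fall along it, at 27.7, 94.5, 96.8 and 111 CPM. Of the 273 genes called higher, 242 (88.6%) had the same sign of slope in these 4 tumours, beside 56.1% of the 9056 genes with a positive slope. Of the 120 called lower, 77 (64.2%) had the same sign, beside 60.9% of the 9171 with a negative slope. Krt14 rose in the order of Krt10 over these 4, at 3428, 12658, 19964 and 21228 CPM (on raw totals, as for their Krt10). Following Krt10 and following Krt14 thus cannot be told apart in these 4 tumours. Basal Trp63 was 53.6, 197, 296 and 288 CPM in that order. Stromal genes were highest at the low end of Krt10: in the same order Col1a1 was 28425, 7128, 1028 and 3946 CPM, and Fn1 was 4970, 869, 284 and 444 CPM. Untreated 4, the lowest of the 4 in Krt10, was thus the lowest in Krt14 and the highest in both stromal genes, and the part of neither in the order of the other genes was tested.

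Promoters of the cornification genes are shown because these members move together. Windows from 250 bases before to 50 after the annotated start, from RefSeq on GRCm38.p6, were found for 63 of 70 tested genes of both cornification lists. The motif TGANTCA, a looser form of the AP-1 site, whose middle base is C or G, was searched on both strands. Of the examples below Dmkn has G there, Rptn T and Sprr1b A. TGANTCA was held by 24 of the 63 genes (38.1%), beside 7.23% of the 12242 tested genes with a window. Among genes called with Krt10, 15.42% of those higher and 4.3% of those lower held it. The motif AACCGGTT of grainyhead factors, regulators of barrier genes, was in 0 of the 63 and in 0.27% of tested genes. These counts describe letters, not binding, and the Sprr and Lce genes share sequence by descent. Below are 3 such genes with the motif in capitals: Rptn (repetin, chr3:93393449-93393748, plus strand, match 96 bases before the start), Sprr1b (chr3:92438730-92439029, minus strand, match 111 bases before) and Dmkn (dermokine, chr7:30763506-30763805, plus strand, match 89 bases before).
Rptn: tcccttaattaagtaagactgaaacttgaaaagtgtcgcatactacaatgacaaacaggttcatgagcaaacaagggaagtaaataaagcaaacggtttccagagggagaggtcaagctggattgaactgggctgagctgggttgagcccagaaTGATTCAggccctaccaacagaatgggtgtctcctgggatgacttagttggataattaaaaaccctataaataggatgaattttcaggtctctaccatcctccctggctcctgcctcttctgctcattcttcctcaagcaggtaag
Sprr1b: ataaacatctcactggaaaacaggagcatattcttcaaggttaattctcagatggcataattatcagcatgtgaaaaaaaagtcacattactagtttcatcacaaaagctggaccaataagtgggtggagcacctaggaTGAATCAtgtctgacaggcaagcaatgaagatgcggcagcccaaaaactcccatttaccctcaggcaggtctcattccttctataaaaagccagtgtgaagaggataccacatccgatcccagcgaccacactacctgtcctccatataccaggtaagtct
Dmkn: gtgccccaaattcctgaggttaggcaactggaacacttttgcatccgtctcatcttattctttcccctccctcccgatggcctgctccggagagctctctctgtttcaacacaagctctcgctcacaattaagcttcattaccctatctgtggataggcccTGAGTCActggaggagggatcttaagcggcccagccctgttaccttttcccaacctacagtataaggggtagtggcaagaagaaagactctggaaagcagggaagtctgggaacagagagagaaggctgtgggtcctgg

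Rptn had 146, 580 and 1220 CPM in untreated 2, untreated 4 and BAP 2 and 819 to 3462 CPM in keratinising tumours, and a slope of 0.85 ± 0.13 (SE) per doubling of Krt10. Dmkn had 422, 1007 and 1610 CPM against 889 to 3434 CPM, and a slope of 0.53 ± 0.07 (SE). Both were called higher with Krt10, as was Sprr1b at 0.75 ± 0.12 (SE).

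Several other measures moved with the classes. Fits with some of them as covariates, or within tumours alike in them, are given as values and do not settle their part in the results above. The Y-linked gene Ddx3y was present in all 3 weakly keratinising tumours (33.0, 4.02 and 36.8 CPM on raw totals) and in 2 of 8 keratinising ones, untreated 5 (29.9 CPM) and BAP 1 (52.7 CPM). Xist was at least 118 CPM in the other 6 and at most 1.93 CPM in the 3. In untreated 5 it was 1.04 CPM, and in BAP 1, which thus held both RNAs, 12.1 CPM. A fit of only the 5 tumours with at least 1 CPM of Ddx3y took in 2 keratinising, BAP 1 among them, and 3 weakly keratinising. There edgeR called 0 genes, with 375 at an unadjusted p under 0.05 of 17980. Within those 5 the median log2 fold change was 0.65 for epidermal cornification and 0.94 for the mucosal type, with 35 of 37 and 30 of 33 positive. With the Xist level as a covariate over all 11 tumours, the medians were 0.47 and 0.50 in place of 1.37 and 1.32. All 3 weakly keratinising tumours were low in Xist, so that fit cannot fully tell its part from that of the class.

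Stroma and muscle differed too. Of 20 fibroblast and matrix genes, 19 were positive with a median of 1.45, and 8 were higher at an unadjusted p under 0.05, beside 5.44% of all genes. Their summed level was 1087, 3481 and 1355 CPM in untreated 2, untreated 4 and BAP 2 and 2016 to 35475 CPM in keratinising tumours, where untreated 5 alone exceeded 3589 CPM. Without untreated 5, Col5a1 was at 1.11 in place of 2.22. With the split at 20000 CPM of Krt10, which moves untreated 5, BAP 1, BAP 3 and BAP 5 to the lower class, it was at -0.94. Of 15 skeletal muscle genes 15 were negative, with a median of -2.42, and 6 were lower at that p, beside 4.15% of all genes. Their sums overlapped, at 601, 26.7 and 97.2 CPM against 13.2 to 234 CPM, and Myh7 and Tnnc2 were at 0 in every tumour. In the macrophage list 15 of 20 genes were positive with a median of 0.38. Apoe, a lipid carrier gene that macrophages express, was at 3184, 1265 and 4510 CPM against 282 to 1437 CPM, and Arg1, the arginase gene, at 55.1, 127 and 229 CPM against 170 to 1001 CPM. The mitochondrial ribosomal RNA mt-Rnr2 was 2782 and 2635 CPM in untreated 2 and untreated 4, against 513 CPM in BAP 2 and 285 to 859 CPM in the keratinising tumours.

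Expression along whole chromosomes was shifted in single tumours. Chromosome 3 carries the epidermal differentiation complex, the cluster of cornification genes, and 146 of its 951 tested genes (15.4%) were higher at an unadjusted p under 0.05, beside 5.44% over all genes. In BAP 2 the median gene of chromosome 3 lay 0.50 log2 units below its median over the 11 tumours, a deviation of -0.50. That was so along its length: in 13 of 13 stretches of 10 Mb with at least 20 tested genes BAP 2 was below 0, between -0.69 and -0.29. Chromosome 1 in BAP 2 was alike, with 18 of 18 stretches below 0. In untreated 4 the stretch from 100 to 110 Mb of chromosome 3 was at 1.12, as it was in BAP 6, and that from 140 to 150 Mb at -0.84, against 0.59 in BAP 6. Over the 908 genes of chromosome 3 outside the cornification lists the median log2 fold change was 0.25. The 27 cornification genes on other chromosomes were all positive with a median of 1.17, beside 1.40 for the 43 on chromosome 3. Pmvk, Crabp2, Arnt and the Lce and Sprr families lie on chromosome 3, and Hsd17b7 and Pkp1 on chromosome 1. Tgm3, Nfe2l2 and Srxn1 lie on chromosome 2, where 100 of 1328 genes (7.53%) were higher at an unadjusted p under 0.05 in edgeR's test, beside 5.44% over all genes. Chromosome 2 deviated by -0.20 in BAP 2, -0.14 in untreated 2 and 0 in untreated 4. On chromosome 17, 100 of 877 genes (11.4%) were lower, beside 4.15% over all genes, and the stretch from 40 to 50 Mb that holds Dlk2, Pex6 and Tjap1 had 23 of 100 lower and deviated by 0.59 in untreated 4, 0.24 in untreated 2 and 0.15 in BAP 2. Dll1 also lies on chromosome 17. Jag2 lies on chromosome 12, where 57 of 643 genes (8.86%) were lower and untreated 4 deviated by 0.26. The part of such shifts in the values of single genes was not tested. The stretches were chosen after their values were seen.

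**Figure D5:**
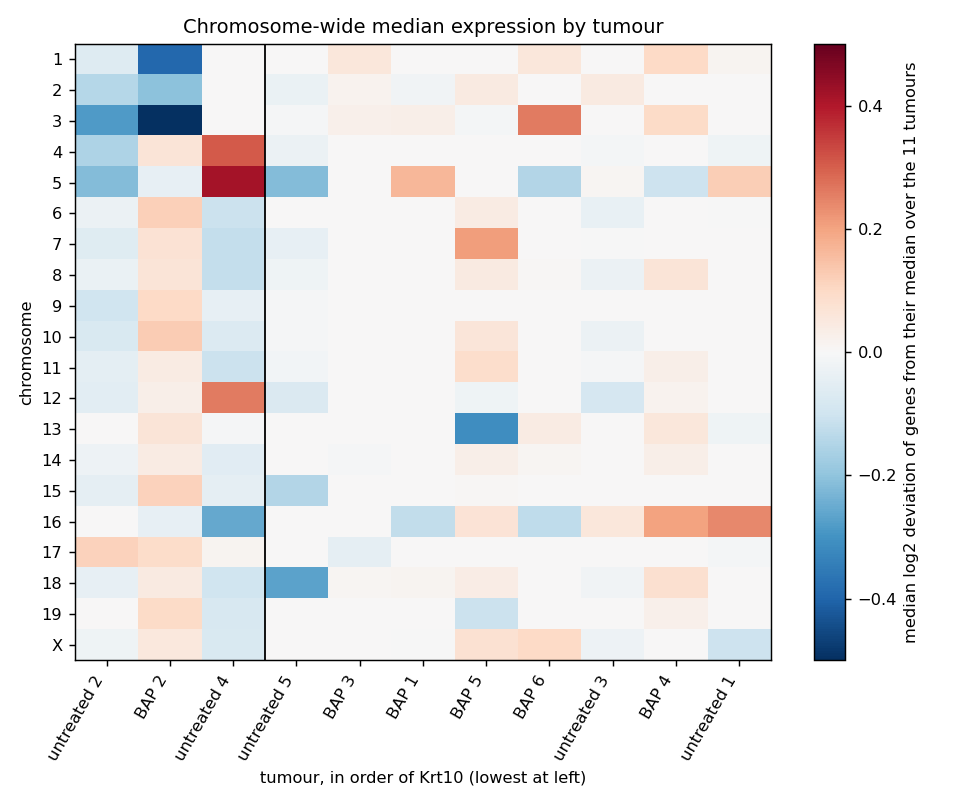
Median log2 deviation of the genes of each chromosome (rows) from their own median over the 11 tumours (columns, in order of Krt10, with a line between the classes), for genes with a mean of at least 5 CPM. BAP 2 is low on chromosomes 3 (-0.50) and 1 (-0.39), and untreated 4 is high on chromosomes 5 (0.42), 4 (0.31) and 12 (0.26).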

How the data were processed

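Total RNA of 22 mouse tumours was sequenced as paired-end Illumina reads, per the labels' protocols. The deposited files give an expected count per Ensembl gene ID for each library, which the deposited file names attribute to RSEM; its version, the aligner and the genome build are not stated in the labels or files used here. Each expected count was whole at a tolerance of 1e-09, so rounding changed nothing. Of 56748 IDs, 52125 (99.41% of counts) had a symbol in GENCODE M21 on GRCm38. Replicates are numbered in order of deposition. Tumours with at least 3000 CPM of Krt14 were split at 10000 CPM of Krt10, and the groups, genes and lists were chosen with earlier results of these data known.

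The 11 libraries (29602879 to 38345425 counts) were scaled by TMM, filtered by filterByExpr (minimum count 10) and fitted with edgeR 4.0.16 in R 4.3.3 by its robust quasi-likelihood test with terms for treatment and class. Of 18304 genes fitted, 46 were keratins, which got no call; p-values were adjusted by Benjamini-Hochberg over the other 18258. The fit was first tested on simulated data. Alternatives used DESeq2 1.42.0, limma 3.58.1, other scalings, filters, covariates, splits and library sets; those using Xist, the fibroblast score, Keap1-deleted tumours, Ddx3y-positive libraries, an interaction and the left-out libraries of the Krt10 fit were added after seeing the data. Named genes are up to 2 members per list with the smallest p (no gene was called), a fixed set of keratinocyte and targeted genes and the 10 genes most like Krt10. Genes with the smallest p-values of all and examples from the Krt10 fit, such as Hrnr, Cers3, Ptprs, Hmox1, Ahr, Nqo1 and Col1a1, were picked with their values in view. Only some of the genes under the rule are reported here.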

Additional observations from a re-analysis of the deposited data

Results flagged for a closer look

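Within the 8 keratinising tumours, 85 genes were checked for a tumour far from the rest, and 9 had one whose gap to its neighbour was large against the group's range. Chance flags about 1 in 20 groups where values are normally distributed. CPM was not put on a log scale, and that rate may not hold for it. The flagged tumour was the highest of the 8 in all 9 genes. Untreated 5 was the highest in 4 of them, all of stroma: Col1a1 at 11440 CPM (next 942 CPM), Col5a1 at 734 CPM (next 122 CPM), Fn1, the fibronectin gene, at 563 CPM (next 214 CPM) and Twist1, a mesenchymal factor gene, at 62.2 CPM (next 25 CPM). BAP 5 was the highest in 3: Trp63 at 770 CPM (next 458 CPM), Mki67 at 222 CPM (next 161 CPM) and Gsta4 at 1268 CPM (next 757 CPM). Qpct was 85.9 CPM in BAP 4 (next 54.6 CPM), and Neb, the muscle gene nebulin, was 5.75 CPM in untreated 1 (next 3.05 CPM).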

How the results depend on the processing

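Tests of 77 genes were recomputed under 31 alternatives. Direction held under all of them for 61 genes, and 8 also stayed without a call in each. Counts of calls, 0 higher and 0 lower, became 147 and 50 with the DESeq2 test, 273 and 120 with log2 Krt10 in place of the classes, 667 and 380 when 4 Keap1-deleted tumours joined that fit, 113 and 81 with the split at 5000 CPM (untreated 2 alone against 10), 8 and 17 in BAP tumours only (BAP 2 alone in its class, assumed to vary like the others), and 1 and 1 with no low-count filter. Leaving out each tumour gave 0 to 1 higher and 0 to 1 lower. The cause was not tested. No paired analysis was possible because the replicate numbers only follow the order of deposition.

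Signs that turned, as log2 fold changes: with the split at 20000 CPM, Col1a1 -1.17, Col5a1 -0.94, Fn1 -0.88, Twist1 -0.50, Trp63 -0.25, Pik3ca -0.10 and Keap1 0.0152; with the split at 5000 CPM, Car9 0.85, Dlk2 0.29, Notch1 0.0220, Trp63 -0.105 and Pik3ca -0.31; per doubling of Krt10, Trp63 -0.0185 and Pik3ca -0.0257, and with the Keap1-deleted tumours Col1a1 -0.37, Col5a1 -0.35, Fn1 -0.33, Twist1 -0.0084, Pik3ca -0.0333, Mki67 0.0151 and Notch1 0.0242. With no Krt14 minimum Fn1 was -1.76 and Notch1 0.13. In BAP tumours only, Notch1 was 1.88 and mt-Rnr2 0.53, and in untreated tumours Nqo1 was -0.0318. With library totals, Trp63 was -0.15, Pik3ca -0.0064 and Nqo1 -0.0895. With limma-voom, Notch1 was 0.41 and Nqo1 -0.0111. With a covariate for Xist, Ivl was -0.55, Nqo1 -0.38, Trp63 -0.37, Lipn -0.16 and Mcm4 -0.053; for Ddx3y, Trp63 -0.24 and Nqo1 -0.0454; for muscle, Trp63 -0.0044; for fibroblasts, Notch1 0.16; for the R suffix of titles, Notch1 0.0222. With one tumour left out, Trp63 ran from -0.10 to 0.10, Notch1 from -0.90 to 0.52 and Nqo1 from -0.14 to 0.42. List medians kept their sign under all 29 alternatives of the class comparison for both cornification lists, barrier lipids, kallikreins, transcription factors, sterol synthesis and the aryl hydrocarbon receptor list; the alarmin median turned in 13 and the fibroblast median in 2. The size of these medians varied, running from 0.47 to 2.55 for epidermal cornification, 0.50 to 2.60 for the mucosal type, 0.36 to 1.53 for barrier lipids and 0.48 to 2.40 for kallikreins, in each case lowest with the Xist covariate and highest with the split at 5000 CPM.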
